A study of Mus musculus with 14 samples.

Results

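The erythroid genes Klf1, Epor, Car1, Car2 and Ermap were examined in aged and young hematopoietic stem cells (HSCs) after transplantation. They were chosen by name, and all 5 were among the 1043 genes listed for this comparison. Old HSCs (oHSCs, 4 libraries) and young HSCs (yHSCs, 3 libraries) were compared 4 months after transplantation, with no guide or other treatment named for either group. The labels give no strain, genotype or age for the donors of these libraries. The methods list C57BL/6J mice of 2 months and of over 18 months, as well as Rosa26-Cas9 knock-in mice, and which of these gave the cells is not stated. Recipients are described for the study in general as lethally irradiated mice that also received helper cells, with CD45.1 mice of 2 months listed among the animals. The labels call the sorted cells hematopoietic stem and progenitor cells, a wider term than HSC. The study states in general that sequencing used biological replicates, and that analyses drew on both biological and technical ones. Neither these statements nor the labels say whether these libraries came from separate mice. The p-values cover the spread between these libraries, which may be technical.

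Red cells arise from HSCs through progenitors that lose other fates and come to depend on erythropoietin. The transcription factor Gata1 opens this programme with its partners, and Klf1 follows it to switch on globin, membrane and enzyme genes through CACCC elements. Single erythroid transcripts can already be found in stem and progenitor cells, at levels far below those of erythroblasts.

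The members differ in role. Klf1 encodes the erythroid Krüppel-like factor, and Epor the receptor for erythropoietin. Car1 and Car2 encode cytosolic carbonic anhydrases, which interconvert carbon dioxide and bicarbonate, and Ermap encodes an erythroid membrane protein of the immunoglobulin superfamily. All 5 genes are protein coding. In the GENCODE M21 annotation of GRCm38 (mm10), Klf1 (ENSMUSG00000054191.8) lies at chr8:84901928-84905291 on the plus strand. Epor (ENSMUSG00000006235.6) lies at chr9:21958897-21963506 on the minus strand. Car1 (ENSMUSG00000027556.15, chr3:14766216-14808368, minus strand) and Car2 (ENSMUSG00000027562.12, chr3:14886273-14900770, plus strand) are neighbours, with 77.9 kb and Car3 between them. Ermap (ENSMUSG00000028644.16) lies at chr4:119175457-119190011 on the minus strand. No exon of a member overlapped an exon of another gene. Of the 50-base words of the longest Car1 transcript, 14.5% also occur in transcripts of Gm5843, so Car1 values are uncertain if reads were shared between them. Car1 and Car2 share 0 such words.

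Bases upstream of the RefSeq start of Klf1, Epor and Ermap (GRCm38.p6) are shown because Gata1 and Klf1 are themselves among the genes measured here. Each sequence reads 5′ to 3′ on the strand of its gene, and capitals mark letters of a GATA or a CACCC motif. The runs of Klf1 and Ermap stop before the most upstream GENCODE start of the gene, which leaves out the last 54 and 16 bases before the RefSeq start, while the Epor run reaches it. Klf1 is chr8:84901732-84901927, plus strand, Epor is chr9:21963577-21963826, minus strand, and Ermap is chr4:119190012-119190245, minus strand.
Klf1: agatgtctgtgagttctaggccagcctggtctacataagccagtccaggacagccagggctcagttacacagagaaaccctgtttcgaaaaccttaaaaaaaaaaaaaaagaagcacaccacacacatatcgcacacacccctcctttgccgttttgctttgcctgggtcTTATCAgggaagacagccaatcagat
Epor: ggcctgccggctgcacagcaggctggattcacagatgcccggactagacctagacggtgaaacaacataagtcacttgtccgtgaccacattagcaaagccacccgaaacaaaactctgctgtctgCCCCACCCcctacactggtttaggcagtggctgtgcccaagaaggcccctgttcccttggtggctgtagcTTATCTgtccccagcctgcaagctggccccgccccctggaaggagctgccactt
Ermap: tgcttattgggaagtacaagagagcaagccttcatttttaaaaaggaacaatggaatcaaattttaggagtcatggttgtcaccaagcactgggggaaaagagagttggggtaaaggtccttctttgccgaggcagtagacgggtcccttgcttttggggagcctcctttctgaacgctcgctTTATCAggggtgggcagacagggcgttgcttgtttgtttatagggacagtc
The GATA motif was searched as AGATAA or its variant AGATAG, and with T as first letter as TGATAA or its variant TGATAG, on both strands of the full 250 bases before the RefSeq start, those not printed included. The CACCC letters were CCNCACCC, likewise on both strands. The 250 bases of Klf1, Epor and Ermap each held 1 GATA match, at -80 to -75, -54 to -49 and -67 to -62 from the RefSeq start, all within the printed runs. Epor also held a CACCC match at -124 to -117. Of 32851 mouse promoters searched over 250 bases, 26.5% held a GATA match and 14.9% a CACCC match. Both are common, and a match is a description of letters, not a binding site.

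All levels are values normalized for transcript length and library size, read as FPKM. Each group was deposited in a table of its own, and the sources used here do not say whether the tables were scaled together, so a difference in scale between tables and a difference between groups cannot be told apart. Summed over the 1043 genes, levels were 71628 to 84123 FPKM per oHSC library and 42199 to 54607 FPKM per yHSC library. The study describes the listed genes as those called higher in transplanted oHSCs, from these same libraries. That selection set the direction of the counts and of the non-overlapping groups below, and the tests are not independent evidence. In the values used here, 1006 of 1043 genes had a log2 fold change above 0. Depth is unknown. In bulk RNA, more cells of a type and more RNA per cell cannot be told apart. Of 7 HSC markers, the table lists Procr and Slamf1. Of 12 erythroid markers, it lists 7, without globin genes, Alas2, Slc4a1 or Tfrc. A gene that is not listed was not analysed here, which says nothing of its level.

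Klf1, Car1 and Car2 were higher in transplanted oHSCs than in yHSCs, by 2.91-fold, 2.44-fold and 2.05-fold in mean FPKM, and every oHSC library lay above every yHSC library. Ermap passed the limits with overlapping groups, and Epor did not pass. A gene was called at an unadjusted limma p under 0.05 with an absolute log2 fold change over 0.5, on log2(FPKM + 1). By this rule 4 of 5 members were called higher, beside 62.5% of the 1043 genes. With Benjamini-Hochberg adjusted p, 3 of 5 members were called (Klf1, Car1 and Car2), beside 37.3%. The same 3 members had groups that did not overlap with oHSCs higher, beside 49.7% of genes. These shares of the members lie near the background or rest on few genes, so they are no result about the erythroid genes as a group. The median log2 fold change was 1.05 for the members and 0.70 for all genes.

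**Figure D1:**
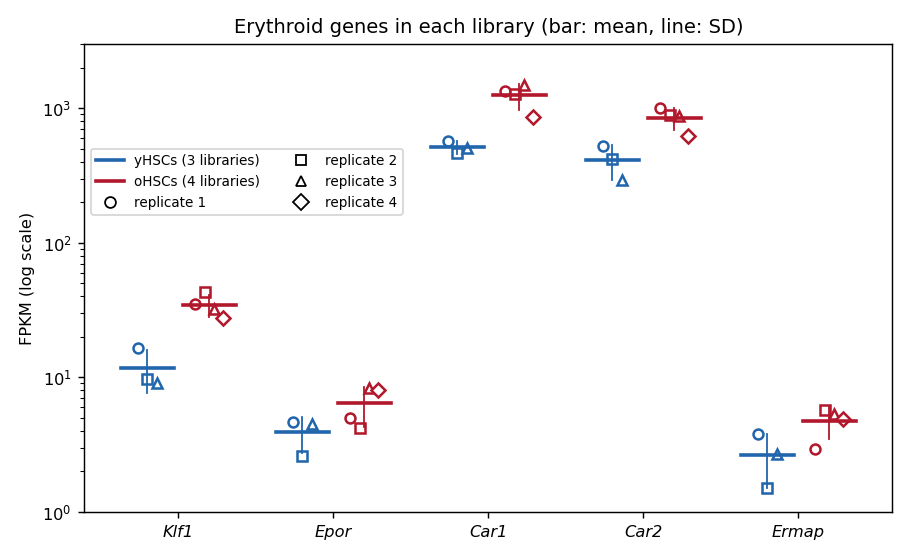
FPKM of each of the 5 genes in every library, on a log axis, with points for the 3 yHSC and 4 oHSC libraries and the group mean and SD drawn beside them. For Klf1, Car1 and Car2 all oHSC points lie above all yHSC points, whereas the points of Epor and Ermap overlap.

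Klf1 had 35.2, 42.8, 32.1 and 27.6 FPKM in oHSC replicates 1 to 4 and 16.6, 9.80 and 9.06 FPKM in yHSC replicates 1 to 3. The lowest oHSC library was 1.66 times the highest yHSC library. Mean levels were 34.4 ± 6.41 FPKM (SD, n = 4) and 11.8 ± 4.15 FPKM (SD, n = 3). The log2 fold change was 1.50 (SE 0.26, 95% interval 0.91 to 2.08), with a limma adjusted p of 0.00532. Of the 1043 genes, 94.2% had a smaller log2 fold change. Klf1 was the member with the largest change, and the only one that kept its call under all 17 settings tried, with limma adjusted p between 0.00198 and 0.0650.

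Epor had 5.02, 4.20, 8.39 and 8.06 FPKM in oHSCs, against 4.64, 2.58 and 4.53 FPKM in yHSCs. Replicates 3 and 4 of the oHSCs were high, while oHSC replicate 2 fell within the yHSC range. Mean levels were 6.42 ± 2.12 FPKM (SD, n = 4) and 3.92 ± 1.16 FPKM (SD, n = 3). The log2 fold change of 0.58 (SE 0.29, 95% interval -0.06 to 1.21) did not pass, with a limma adjusted p of 0.0967. The interval holds both 0 and a change as large as that of Car2, so a difference of either size remains possible. Without oHSC replicate 2 the value was 0.73 and passed the unadjusted limit, the only 1 of 17 settings in which Epor was called. Without yHSC replicate 2 it was 0.36.

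Car1 was the most abundant member. Its levels were 1353, 1269, 1500 and 867.2 FPKM in oHSCs, against 570.9, 463.1 and 502.8 FPKM in yHSCs. The groups did not overlap, though oHSC replicate 4 lay below the other oHSC libraries. Means were 1247 ± 270.7 FPKM (SD, n = 4) and 512.3 ± 54.5 FPKM (SD, n = 3). The log2 fold change was 1.26 (SE 0.24, 95% interval 0.72 to 1.80), with a limma adjusted p of 0.00752. Ordered by mean level, Car1 stood at place 11 of 1043 in oHSCs and place 18 in yHSCs.

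Car2, the widely expressed and faster enzyme of the pair, had 995.4, 887.3, 870.5 and 619.1 FPKM in oHSCs. In yHSCs it had 523.4, 420.7 and 290.4 FPKM. The nearest libraries of the groups, oHSC replicate 4 and yHSC replicate 1, differed by 1.18 times. Means were 843.1 ± 159.2 FPKM (SD, n = 4) and 411.5 ± 116.8 FPKM (SD, n = 3), and the log2 fold change was 1.05 (SE 0.27, 95% interval 0.46 to 1.65, limma adjusted p = 0.0183). Car2 stood at place 19 in oHSCs and place 21 in yHSCs. Summed, both enzymes gave 1486 to 2370 FPKM per oHSC library and 793.3 to 1094 FPKM per yHSC library. Among 16 carbonic anhydrase genes, these were the 2 listed, and both were called higher, beside 62.5% of all 1043 genes.

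Ermap had the lowest levels, with 2.94, 5.75, 5.36 and 4.94 FPKM in oHSCs and 3.81, 1.49 and 2.69 FPKM in yHSCs. One oHSC library, replicate 1, lay below yHSC replicate 1, and 11 of 12 pairs of libraries had the oHSC library higher. Mean levels were 4.75 ± 1.25 FPKM (SD, n = 4) and 2.66 ± 1.16 FPKM (SD, n = 3). The log2 fold change was 0.67 (SE 0.29, 95% interval 0.03 to 1.31), and the limma adjusted p of 0.0703 missed the limit. When replicate numbers entered the fit as a block, the value was 0.65 (SE 0.34, limma adjusted p = 0.119) and the call was lost. Over the 17 settings the limma adjusted p of Ermap ran from 0.0412 to 0.979. That fit called 3 of 5 members higher, beside 72.1% of all genes.

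The list was selected for genes higher in oHSCs, and its median change lies above 0. That selection and a difference in scale between the groups cannot be told apart here. When libraries were rescaled by the median of ratios over the 1043 genes, the median log2 fold change of all genes moved from 0.70 to 0.07, and calls went from 652 higher and 10 lower to 125 higher and 54 lower. Klf1 stayed higher, by 0.72 (SE 0.19, limma adjusted p = 0.0530), and passed the unadjusted limit. Car1 and Car2 were then at 0.44 and 0.23 and no longer passed, Ermap was at 0.04, and Epor turned to -0.10. Centring a list selected as higher lowered its values, but not all by the same amount, because the pseudocount of 1 is added after scaling. Car1 moved from 1.26 to 0.44, while Hmox1, a listed gene at low levels, moved only from 0.93 to 0.70. A gene below the list median can so turn towards or under 0 by construction, and the negative value of Epor is no measured fall. These values give the place of a gene relative to the other listed genes, mixed with an effect of its level.

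**Figure D2:**
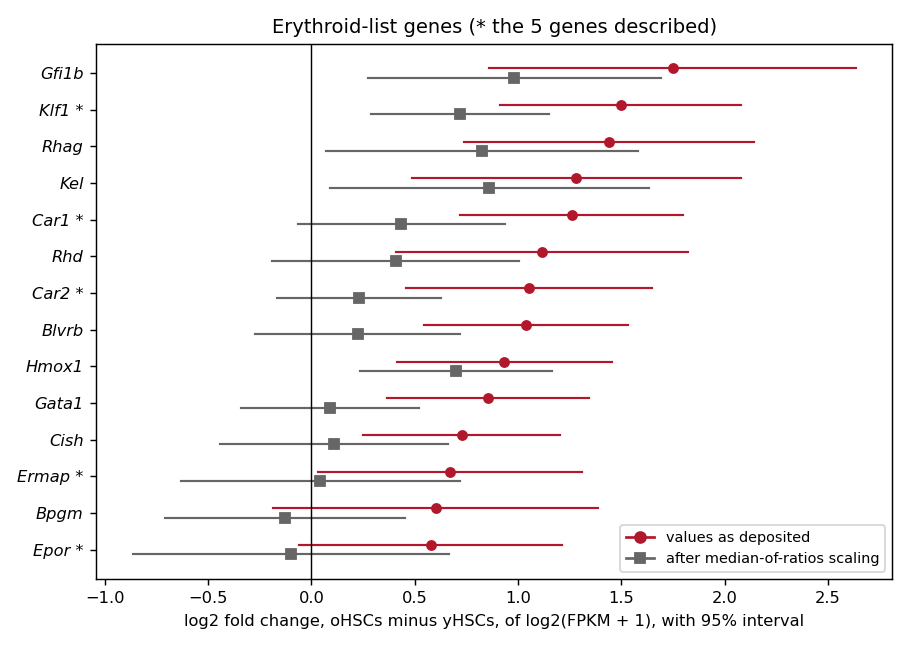
Log2 fold change of oHSCs over yHSCs on the log2(FPKM + 1) scale for the erythroid genes named in the text, with bars for the 95% interval, as deposited and after median-of-ratios scaling. Klf1 moves from 1.50 to 0.72 and Epor from 0.58 to -0.10.

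Plain ratios of FPKM between members within a library do not depend on how libraries were scaled. The log2 ratios tested below add a pseudocount to each level, so they do depend on it, most at low levels. Of 10 pairs, only Car2 to Klf1 had groups that did not overlap on the linear scale. Car2 was 20.7 to 28.3 times Klf1 in oHSC libraries and 31.6 to 42.9 times Klf1 in yHSC libraries. The difference in mean log2 ratio, with a pseudocount of 1, was -0.44, with an exact two-sided permutation p of 0.0571, the smallest that 35 splits allow, and 0.190 after adjustment over the 10 pairs. Klf1 to Epor was 3.43 to 10.2 in oHSCs and 2.0 to 3.79 in yHSCs. Klf1 to Ermap was 5.58 to 12.0 in oHSCs and 3.37 to 6.56 in yHSCs. Both overlap linearly. With the pseudocount their groups separate, with differences of 0.92 and 0.82, but with a pseudocount of 0.1 the exact permutation p was 0.229 and 0.171. No pair passed after adjustment, and this design could not reach 0.05 for any. Car1 to Car2 was 1.36 to 1.72 in oHSCs and 1.09 to 1.73 in yHSCs, a difference of 0.21 with an exact permutation p of 0.286.

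**Figure D3:**
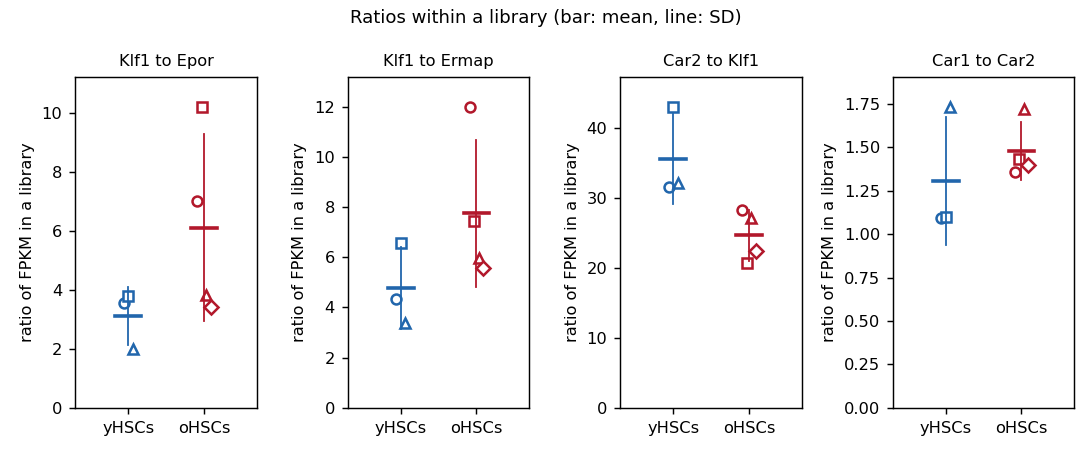
Ratios of FPKM for 4 pairs of genes (Klf1 to Epor, Klf1 to Ermap, Car2 to Klf1 and Car1 to Car2) within each library, on linear axes that start at 0, for 3 yHSC and 4 oHSC libraries. The Car2 to Klf1 ratio is lower in every oHSC library than in every yHSC library, and the Car1 to Car2 ratio overlaps.

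The order of levels was the same in nearly every library. Car1 lay above Car2, Car2 above Klf1, and Klf1 above Epor in 7 of 7 libraries. Epor lay above Ermap in 6 of 7, and the ranges of these 2 genes overlapped in both groups. Within groups, the members did not all move together. Over the 7 libraries, deviations from the group mean had a Pearson r of 0.79 for Car2 and Klf1, 0.67 for Car1 and Car2, 0.53 for Epor and Ermap and -0.36 for Car2 and Epor. The values come from the same libraries and are descriptions. In oHSC replicate 4, Klf1, Car1 and Car2 were at their lowest among oHSCs, while Epor was near its highest. Summed over all 1043 genes, levels were also lowest in oHSC replicate 4 among oHSCs (71628 FPKM) and in yHSC replicate 3 among yHSCs (42199 FPKM). Deviations were not corrected for library scale, and its part in these correlations was not tested.

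Among the 935 genes whose higher group mean reached 1 FPKM, those most like each member in these deviations were as follows. For Klf1 they were Ftsj1 (r = 0.978), Nt5c2 (0.950) and Selenom (0.949). For Epor they were Pglyrp1 (r = 0.919), Gm14200 (0.892) and Ppia (0.848). For Car1 they were Slc40a1, the iron exporter ferroportin (r = 0.995), Gm17907 (0.966) and Nmrk1 (0.949). For Car2 they were Bpgm (r = 0.997), Gm10259 (0.995) and Lyz2 (0.993). For Ermap they were Zfp580 (r = 0.901), 6820431F20Rik (0.875) and Spire1 (0.875). Bpgm was the one gene of the erythroid lists among them. The part of library scale in these values was likewise not tested.

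The wider erythroid lists held 91 genes, of which 15 were in the table. Of these, 13 were called higher, 0 lower and 2 (Epor and Bpgm) did not pass, and 12 were called with adjusted p. Of all 1043 genes, 62.5% were called higher and 37.3% with adjusted p, and all had been selected as higher. Without the 5 members, 9 of 10 listed genes were higher, with a median log2 fold change of 0.99 beside 0.70 for all genes. After rescaling by the median of ratios, 5 of the 15 still passed the unadjusted limit (Klf1, Gfi1b, Hmox1, Kel and Rhag), beside 12.0% of all genes. Hmox1, Kel and Rhag had low mean levels in oHSCs, 1.26, 3.48 and 5.90 FPKM, where the pseudocount of 1 limits what rescaling can change. This share is therefore no result about the erythroid genes as a group. None of the 5 passed with adjusted p, as their limma adjusted p ran from 0.0530 (Klf1) to 0.217 (Rhag).

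Among 12 transcription factors, Gata1, Klf1 and Gfi1b were listed, and all were called higher, beside 62.5% of all 1043 genes. Gata1, the master regulator of erythroid and megakaryocyte genes, had 20.6, 20.7, 15.5 and 16.3 FPKM in oHSCs and 11.3, 8.22 and 9.39 FPKM in yHSCs. It rose by 0.86 on the log2 scale (SE 0.22, limma adjusted p = 0.0189), and stood at 0.09 after rescaling. Gfi1b, a repressor needed for red cells and platelets, had 55.4, 35.9, 44.4 and 29.1 FPKM in oHSCs and 18.5, 15 and 4.85 FPKM in yHSCs. Gfi1b rose by 1.75 on that scale (SE 0.40, limma adjusted p = 0.0137), and stayed at 0.98 after rescaling. Both genes had groups that did not overlap, beside 49.7% of all 1043 genes with oHSCs higher.

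For erythropoietin signalling, Epor and Cish were the 2 of 12 genes listed. Cish, an inhibitor induced by cytokine receptors, had 3.45 to 4.52 FPKM in oHSCs and 1.60 to 2.64 FPKM in yHSCs. It was called higher at 0.73 (SE 0.21, limma adjusted p = 0.0294), while Epor was not. Of 18 genes of haem and iron handling, only Hmox1, a haem-degrading enzyme, was listed, at 0.835 to 1.77 FPKM in oHSCs and 0 to 0.409 FPKM in yHSCs. Hmox1 was called higher at 0.93 (SE 0.23, limma adjusted p = 0.0172), and at 2.53 with a pseudocount of 0.1. None of 11 globin genes was listed.

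Membrane and blood group genes gave 5 of 24 listed, all called higher and 4 with adjusted p, beside 62.5% and 37.3% of all genes. Rhag, the ammonium channel of the Rh complex, had 6.81, 8.25, 5.37 and 3.19 FPKM in oHSCs and 1.04, 1.03 and 2.51 FPKM in yHSCs. Rhag rose by 1.44 on the log2 scale (SE 0.32, limma adjusted p = 0.0116). Rhd, its partner, rose by 1.12 (SE 0.32, limma adjusted p = 0.0267), with oHSC replicate 4 at 5.73 FPKM below yHSC replicate 1 at 6.41 FPKM. Kel, which carries the Kell blood group, rose by 1.28 (SE 0.36, limma adjusted p = 0.0248), and by 2.20 with a pseudocount of 0.1.

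Of 14 enzyme and clearance genes, 4 were listed. Blvrb, a biliverdin reductase, had 112.9 to 172.5 FPKM in oHSCs and 58.1 to 70.2 FPKM in yHSCs, and rose by 1.04 (SE 0.22, limma adjusted p = 0.0109). Bpgm, which makes the phosphate that lowers the oxygen affinity of haemoglobin, had 14.4, 13.1, 11.8 and 6.41 FPKM in oHSCs and 11.0, 7.59 and 3.79 FPKM in yHSCs. Bpgm did not pass at 0.60 (SE 0.35, limma adjusted p = 0.142), and its groups overlapped. With the replicate block it passed at 0.83 (limma adjusted p = 0.0321, with a range of 0.0321 to 0.840 over all settings).

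The table also lists markers of other cell types, whose counts stand beside the 62.5% of all listed genes called higher. Of 20 granulocyte and monocyte markers 10 were listed and 8 called higher, with summed levels of 8185 to 11613 FPKM in oHSCs and 4168 to 5271 FPKM in yHSCs. For mast cells and basophils 9 of 16 were listed and all 9 called higher, at 497.2 to 799.8 FPKM and 233.2 to 370.0 FPKM, with Cma1, Tpsb2, Tpsab1 and Mcpt4 listed at 0 in every yHSC library. For megakaryocytes and platelets 7 of 20 were listed and 5 called higher, at 282.7 to 509.6 FPKM and 179.9 to 249.4 FPKM. The HSC identity list had 4 of 18 listed, all called higher, at 131.7 to 157.0 FPKM and 78.4 to 98.6 FPKM. Of 20 proliferation genes only Aurka was listed, at 35.4 to 69.0 FPKM and 18.6 to 34.2 FPKM, and was called higher, but not with adjusted p. None of 15 lymphoid markers was listed. The erythroid lists summed to 1712 to 2654 FPKM in oHSCs and 908.6 to 1243 FPKM in yHSCs. Most of this came from Car1 and Car2, with 1486 to 2370 FPKM in oHSCs and 793.3 to 1094 FPKM in yHSCs. Without the 5 members the sums were 185.5 to 282.3 FPKM in oHSCs and 99.1 to 123.8 FPKM in yHSCs. The part of these other cell types in the erythroid values was not tested.

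**Figure D4:**
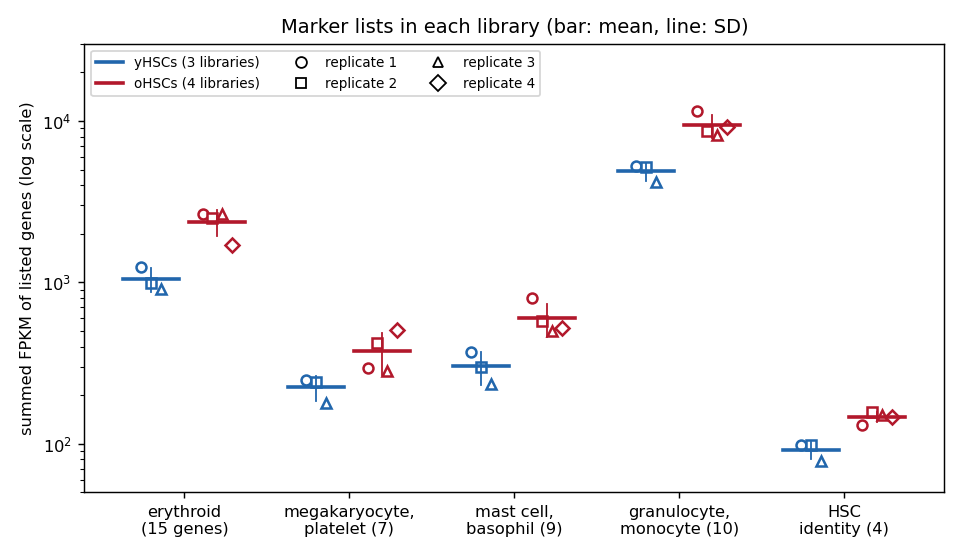
Summed FPKM of the listed genes of each marker list in every library, on a log axis, for 3 yHSC and 4 oHSC libraries. In every list shown the oHSC libraries lie above the yHSC libraries. The erythroid lists lie at 1712 to 2654 FPKM against 908.6 to 1243 FPKM, most of it from Car1 and Car2.

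The second experiment of the series compared old HSCs with a Clu guide (4 libraries) and a control guide (3 libraries). Its tables list 583 genes and 0 of the 5 members, so no erythroid value was compared there.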

How the data were processed

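RNA-seq libraries (SMART-Seq and Nextera XT) were made by the authors, trimmed with TrimGalore, aligned to mm10 (GRCm38) with Hisat2 and counted with FeatureCounts, and genes were called with DESeq2. The authors deposited values that were read here as FPKM. The headers name no unit, so TPM cannot be told apart. The annotation and the step to these values are not given in the sources used here.

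Values were tested with limma (3.58.1, R 4.3.3) on log2(FPKM + 1), two-sided, across all 1043 genes with no covariate. Adjusted p-values are Benjamini-Hochberg over these genes. Within-library ratios used an exact permutation test (SciPy 1.17.1) that doubles the smaller tail. On simulated data with 200 of 1043 genes changed, 73, 186 and 198 were recovered at log2 changes of 0.5, 1 and 2, with 32, 36 and 58 false calls among 843.

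Members, lists and tests were chosen with earlier results of these data known. Named genes are the members, every listed gene of the erythroid and carbonic anhydrase lists, and the 3 genes most like each member. One gene of the erythroid lists enters the counts and sums and is not reported here by name. Genes of other lists are named only where a result turns on them. Replicate numbers come from the labels. Deviations of same-numbered libraries correlated at 0.405, 0.163 and 0.161 for replicates 1, 2 and 3. Libraries with different numbers were not compared, so these values cannot show pairing. A fit with the number as a block was an alternative. It gives no weight to oHSC replicate 4. Alternatives were another pseudocount, a filter on low values, 2 scalings, a variance trend, a fit per gene, adjusted p, a stricter fold limit and leaving out each library. The guide tables hold no member, so no fit was made on them.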

Additional observations from a re-analysis of the deposited data

How the results depend on the processing

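Klf1 kept its direction and call under every alternative. Rescaling over the listed genes, by the median of ratios and by the trimmed mean of log ratios, gave log2 fold changes of 0.44 and 0.41 for Car1, 0.23 and 0.21 for Car2, and 0.043 and 0.024 for Ermap, none of them called. Under the same scalings Epor came to -0.10 and -0.12, and Bpgm to -0.13 and -0.15. They left 1 and 1 members called, with 125 and 123 genes higher and 54 and 57 lower, beside 652 and 10. The list holds genes selected as higher in oHSCs, so these scalings can turn genes below its median negative by construction. They move values at low levels less, because the pseudocount is added after scaling. Adjusted p left 389 genes higher, and a log2 limit of 1 left 197 higher and 2 lower.

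Ermap lost its call with a pseudocount of 0.1 (0.86), with a variance trend, a fit per gene, adjusted p or a limit of 1 (0.67 in each), and with the replicate block (0.65). The block gave Bpgm a call at 0.83 and changed no other call among the named genes. When each library was left out, Ermap lay between 0.42 and 0.89 and lost its call in 5 of 7 fits (without oHSC replicates 2, 3 or 4, or yHSC replicates 2 or 3). Epor lay between 0.36 (without yHSC replicate 2, as for the lowest value of Ermap) and 0.73, and was called without oHSC replicate 2. The members called were 3 to 4. Genes higher were 405 to 655, with 405 without yHSC replicate 3. The Epor to Ermap ratio lay between -0.20 and 0.15, positive without oHSC replicate 2. Bpgm was called without oHSC replicate 4 (0.83) or yHSC replicate 1 (0.90), and was at 0.24 without yHSC replicate 3. A pseudocount of 0.1 raised Hmox1 from 0.93 to 2.53 and Kel from 1.28 to 2.20. The cause of the other changes was not tested. The alternatives for the guide experiment were not run, because its tables list no member. Depth is unknown, so the precision of low values cannot be given.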
